A study of Mus musculus with 18 samples.

Results

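The AP-1 genes described here are the 9 mouse genes Fos, Fosb, Fosl1, Fosl2, Jun, Junb, Jund, Atf3 and Batf, taken from the 48795 genes of the expression table through their Ensembl identifiers, and they were followed over all 6 groups of 3 libraries. GL261 is a mouse glioma cell line, here carrying green fluorescent protein (GFP), that was injected into C57BL/6 wild-type (WT) mice or into Pfp/Rag2-/- mice, which lack perforin and mature T and B cells. The groups were the cultured GFP+ cells used for injection, which the labels also call sorted, unsorted cells of WT tumours and of Pfp/Rag2-/- tumours, the sorted GFP+ tumour cells of each host, and the sorted GFP- cells of WT tumours, which are host cells. Tumours came from symptomatic mice, 6 of each host, and were made into single-cell suspensions with collagenase before sorting. All groups rest on 1 cell line, and nothing in the labels ties a library to a single animal or to pooled animals, so the p-values measure the spread between libraries, which may be technical. They also do not say how the unsorted cells were handled or for how long, so a comparison of sorted with unsorted cells holds the sort, the time it took and the removal of the other cells together, and these cannot be told apart. Age and sex of the mice were not given in the sources used here.

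AP-1 is a dimeric transcription factor built from FOS proteins (Fos, Fosb, Fosl1, Fosl2), JUN proteins (Jun, Junb, Jund) and relatives of the ATF and BATF groups. Fos, Fosb, Jun, Junb and Atf3 are immediate early genes, transcribed within minutes of growth factor, stress or injury signals through MAP kinases and factors already present in the cell, and their mRNAs decay fast. Enzymatic dissociation of solid tissue is a known trigger of this response, while Fosl1 and Fosl2 respond later and Batf works mainly in lymphoid and myeloid cells.

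The libraries held 19172814 to 21141662 reads each. The 9 genes together took 497 to 509 RPM (reads scaled to the library's total) in cultured cells, 598 to 720 in the unsorted libraries of both hosts, 3925 to 7441 in sorted GFP+ cells and 12467 to 14124 in sorted GFP- cells. Library 3 of the WT GFP+ group had the lowest value of its group for all 9 genes. Macrophage and microglia markers, as a median over 12 genes, stood at 6.75% to 8.08% of their GFP- level in unsorted WT libraries, 1.97% to 2.31% in unsorted Pfp/Rag2-/- libraries and 0.468% to 2.43% in the sorted GFP+ libraries. In culture 6 of the 12, Aif1, C1qb, C1qc, Fcgr1, Adgre1 and Itgam, were at 0 in every library. The perforin gene Prf1 had 110 to 160 reads in unsorted WT libraries and 8 to 18 in unsorted Pfp/Rag2-/- libraries, but library 1 of the sorted Pfp/Rag2-/- GFP+ cells held 128 Prf1 reads, against 6 and 1 in the other libraries of that group. Rag2 had 0 reads in the unsorted WT libraries and 4 to 7 in the unsorted Pfp/Rag2-/- libraries. Reads over a whole gene cannot be told from those of a transcript with a deletion, so these values check the host labels only in part. In bulk RNA, fewer cells of a type and less RNA per cell cannot be told apart.

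**Figure D1:**
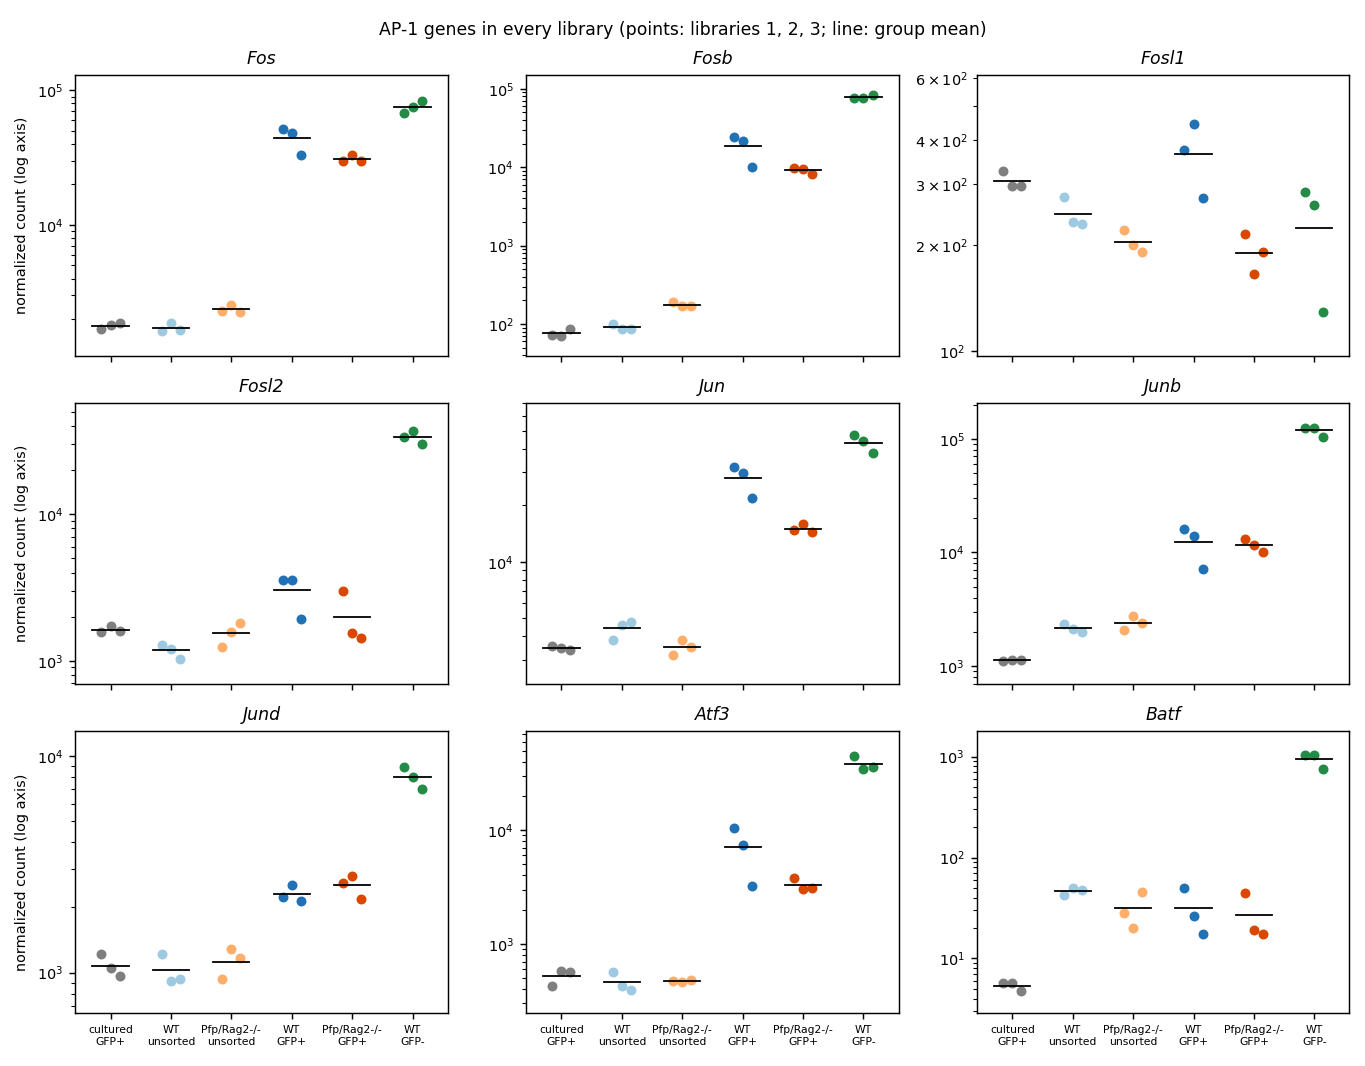
Normalized count (log axis) of each of the 9 AP-1 genes in every library, by group, with the group mean as a line. Fos, Fosb, Jun, Junb, Jund and Atf3 lie higher in all sorted tumour fractions than in culture or unsorted tumours; Fosl1 and Batf do not follow that order.

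The first question was how the genes differed between sorted and unsorted cells of tumours of the same host. No label ties sorted and unsorted libraries to the same tumours. In WT tumours 7 of the 9 genes were higher in sorted GFP+ tumour cells than in unsorted cells and none was lower, where 6.46% of the 15275 genes tested were called higher. The members' median log2 difference was 2.44, and that of all genes tested was -0.05. In Pfp/Rag2-/- tumours 6 of the 9 were higher, where 11.1% of 15324 genes were, with a median of 2.10 for the members and -0.06 for all genes. A gene was called at an adjusted p under 0.05 (limma on log2 of the normalized count plus 1, Benjamini-Hochberg over all genes tested), and each fold change below is on that scale. Without GFP+ library 1 of the host, which held the most NK cell marker RNA, the counts were again 7 and 6.

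Fosb, a FOS protein that also occurs as a truncated splice form, showed the largest difference of the 9. Its normalized counts in unsorted WT libraries 1, 2 and 3 were 100.6, 86.4 and 87.1, and in sorted WT GFP+ libraries 24320, 21723 and 10145. The Pfp/Rag2-/- counts were 190.1, 170.3 and 167.7 unsorted and 9817, 9435 and 8093 sorted. No sorted library came near an unsorted one, and within WT the third sorted library was the lowest. The difference was 190-fold in WT (log2 7.57, SE 0.31, adjusted p = 0.000209) and 51.4-fold in Pfp/Rag2-/- tumours (log2 5.68, SE 0.09, adjusted p = 4.31e-07).

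Fos, the founding member and usual partner of Jun, stood at 1621, 1869 and 1670 in unsorted WT libraries and at 51821, 48083 and 33109 in sorted WT GFP+ libraries. The Pfp/Rag2-/- values were 2278, 2560 and 2252 unsorted and 29736, 33099 and 29822 sorted. Sorted and unsorted libraries were fully separated in both hosts, and library 3 of the WT GFP+ cells lay close to the Pfp/Rag2-/- GFP+ libraries. The difference was 25.3-fold in WT (log2 4.66, SE 0.17, adjusted p = 0.000209) and 13.1-fold in Pfp/Rag2-/- tumours (log2 3.71, SE 0.07, adjusted p = 1.16e-06).

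Atf3, a stress-induced member of the ATF group, had normalized counts of 570.2, 422.8 and 394.5 in unsorted WT cells and 10494, 7443 and 3231 in sorted WT GFP+ cells. The Pfp/Rag2-/- values were 467.3, 459.3 and 484.2 unsorted and 3837, 3071 and 3089 sorted. The groups did not overlap, but the WT GFP+ libraries spread widely among themselves. The log2 difference was 3.79 in WT (SE 0.40, adjusted p = 0.00655) and 2.81 in Pfp/Rag2-/- tumours (SE 0.09, adjusted p = 1.83e-05).

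The JUN genes followed with smaller differences. Jun, the main transactivating JUN protein, went from 3830, 4601 and 4801 in unsorted WT cells to 32210, 29856 and 21902 in sorted WT GFP+ cells, and from 3180, 3845 and 3530 to 14726, 15996 and 14428 in Pfp/Rag2-/- tumours. Junb, a JUN protein of weaker activating power, went from 2373, 2125 and 1989 to 15992, 14038 and 7201 in WT and from 2075, 2763 and 2410 to 13186, 11664 and 10056 in Pfp/Rag2-/- tumours. For both genes every sorted library lay above every unsorted one. The log2 differences were 2.65 in WT and 2.10 in Pfp/Rag2-/- tumours for Jun, and 2.44 and 2.27 for Junb. Jund, the JUN protein that most cells make without a stimulus, differed least of the 3, from 916.8 to 1221 in unsorted WT cells to 2149 to 2533 in sorted WT GFP+ cells (log2 1.18, SE 0.13, adjusted p = 0.00723), with log2 1.17 in Pfp/Rag2-/- tumours.

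The 3 remaining genes did not share this behaviour in both hosts. Fosl2, a FOS protein without the strong activation domain of Fos, had 1289, 1212 and 1035 normalized counts in unsorted WT cells and 3572, 3571 and 1931 in sorted WT GFP+ cells (log2 1.31, SE 0.24, adjusted p = 0.0155). That call rested on single libraries: the adjusted p was 0.0577 without WT GFP+ library 2 and 0.0715 without unsorted WT library 3. The Pfp/Rag2-/- Fosl2 log2 difference was 0.30 (95% interval -0.37 to 0.97, adjusted p = 0.468). Fosl1, a target of AP-1 itself that is high in many transformed cells, gave 0.54 in WT (95% interval 0.08 to 0.995, adjusted p = 0.099, and 0.0329 without WT GFP+ library 3) and -0.11 in Pfp/Rag2-/- tumours (95% interval -0.41 to 0.20). Batf gave -0.69 in WT (95% interval -1.59 to 0.21) and -0.25 in Pfp/Rag2-/- tumours (95% interval -1.32 to 0.82), so neither direction was established for it.

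The promoters of Fos, Fosb, Atf3 and Jun, the 4 genes with the largest sort differences in WT, are shown as the 250 bases before the RefSeq start on GRCm38.p6, each read 5′ to 3′ on the gene's own strand. Capitals mark TGACG (the core of the cAMP response element, on either strand, read as CGTCA on the other one), TATAAA in Fos, and TGACATCA, the 8-base JUN and ATF2 type site, in Jun.
Fos promoter, chr12:85473640-85473889, plus strand: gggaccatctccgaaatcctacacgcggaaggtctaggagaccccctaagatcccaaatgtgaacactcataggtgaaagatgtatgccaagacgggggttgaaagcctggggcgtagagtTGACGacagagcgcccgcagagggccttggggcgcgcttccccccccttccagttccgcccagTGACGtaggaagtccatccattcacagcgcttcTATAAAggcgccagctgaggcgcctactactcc
Fosb promoter, chr7:19310046-19310295, minus strand: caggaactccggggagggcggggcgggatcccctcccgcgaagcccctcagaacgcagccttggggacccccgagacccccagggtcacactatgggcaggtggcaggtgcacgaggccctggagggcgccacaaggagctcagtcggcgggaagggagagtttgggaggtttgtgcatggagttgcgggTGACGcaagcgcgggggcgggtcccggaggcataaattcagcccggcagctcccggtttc
Atf3 promoter, chr1:191183334-191183583, minus strand: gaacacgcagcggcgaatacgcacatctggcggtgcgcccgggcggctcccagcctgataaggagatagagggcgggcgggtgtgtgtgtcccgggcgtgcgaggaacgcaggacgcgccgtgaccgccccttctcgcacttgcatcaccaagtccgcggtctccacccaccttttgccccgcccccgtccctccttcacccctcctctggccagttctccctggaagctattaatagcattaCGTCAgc
Jun promoter, chr4:95052223-95052472, minus strand: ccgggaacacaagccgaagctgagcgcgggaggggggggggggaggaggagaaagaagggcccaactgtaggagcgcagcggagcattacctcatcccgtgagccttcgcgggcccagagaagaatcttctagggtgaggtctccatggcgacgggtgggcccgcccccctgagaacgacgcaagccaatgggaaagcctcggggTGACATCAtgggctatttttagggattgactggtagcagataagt
Both strands were searched, and positions are counted back from the start. The window of Fos held TGACG at -129 to -125 and -66 to -62 and TATAAA at -33 to -28. That of Fosb held TGACG at -60 to -56. The Atf3 window held TGACG on the strand opposite to the gene's own, at -7 to -3, and that of Jun held TGACATCA at -45 to -38. Junb and Batf also held TGACG. Of all 32851 RefSeq windows of this length, 17.8% held TGACG, 2.93% TGACATCA and 12.4% TATAAA. The full sites TGACGTCA (1.55% of windows, which contain TGACG) and TGACTCA (4.46%) had no match in the members' windows. Nor did the CArG box bound by serum response factor (1.47%). Bases beyond these 250 were not searched, and some windows do not end at the gene start given below. The Jund window ends at 70697738, before the gene start of 70698949, and that of Atf3 lies inside the gene (191170296 to 191218039). The letters were matched as a description, and 8 of the 9 genes had a window.

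The second question was where unsorted cells stand when both sorted fractions of WT tumours are considered, since unsorted cells hold both populations. In sorted GFP- cells 8 of the 9 genes were higher than in unsorted WT cells, where 39.9% of 16418 genes were, and the members' median log2 difference was 4.83 against 0.11 for all genes. Fos stood at 67532, 75556 and 82846 in GFP- cells, Fosb at 76386, 77162 and 82264, and Atf3 at 45127, 34360 and 36098. Junb stood at 125568, 125549 and 103770. All these normalized counts lie above every GFP+ and unsorted library of WT tumours. On RPM that held for Fosb, Atf3 and Junb. Fos on RPM was 2270, 2338 and 3069 in GFP- cells and 2733, 2520 and 1807 in WT GFP+ cells, which overlap. The GFP- log2 differences from unsorted cells were 9.74 for Fosb (SE 0.11, adjusted p = 1.86e-08), 6.39 for Atf3, 5.77 for Junb, 5.45 for Fos, 4.83 for Fosl2, 4.29 for Batf, 3.30 for Jun and 2.96 for Jund.

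Thus 7 of the 9 genes, all but Fosl1 and Batf, were higher in both sorted fractions than in unsorted WT cells. Of the 14979 genes tested in both comparisons, 3.53% were. The unsorted libraries are not shown to come from the same tumours as the sorted fractions. On RPM the count was again 7 members, with 314 genes in all. Ranked over all 14979 genes by the smaller of the 2 differences, Fosb was 1st, Fos 3rd, Atf3 8th, Jun 27th, Junb 34th, Fosl2 157th and Jund 194th. Both comparisons use the same unsorted libraries. Without unsorted WT library 3 the count was 6 members, Fosl2 being lost, and 81 genes, and without WT GFP+ library 2 it was 6 members and 127 genes.

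**Figure D2:**
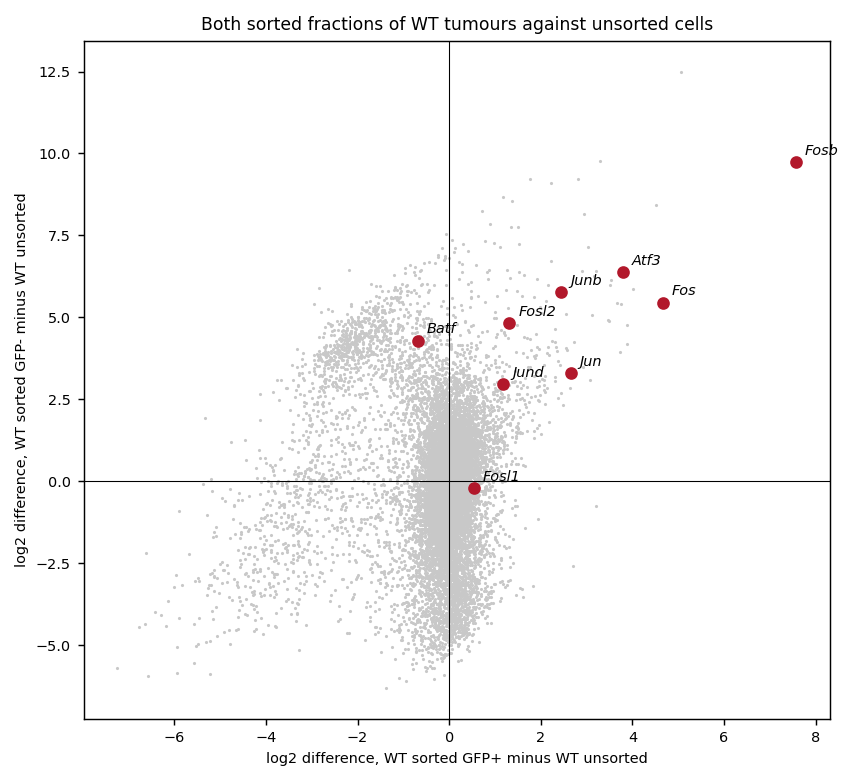
Log2 difference from unsorted WT cells in sorted GFP+ cells (horizontal axis) and in sorted GFP- cells (vertical axis), 1 grey point for each of 14979 genes and red points for the 9 AP-1 genes. Fosb lies at 7.57 and 9.74, Fos at 4.66 and 5.45, while Fosl1 and Batf lie left of or near the zero line for at least 1 fraction.

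Between the sorted fractions, which share the sort, 8 of the 9 genes were higher in GFP- host cells than in GFP+ tumour cells, where 42.7% of 16083 genes were. Batf differed by 4.98 on the log2 scale, Fosl2 by 3.52 (11.5-fold), Junb by 3.33, Atf3 by 2.60, Fosb by 2.17 and Jund by 1.78. Fos differed by 0.79 (SE 0.20, adjusted p = 0.00947) and Jun by 0.64 (SE 0.17, adjusted p = 0.0133). The last 2 depended on the scale: on RPM Fos differed by 0.13 (adjusted p = 0.558) and Jun by -0.014 (adjusted p = 0.933), and that scale moved the median of all genes in this comparison from 0.19 to -0.46. Fosl1 differed by -0.75 (95% interval -1.59 to 0.09, adjusted p = 0.089), and on RPM by -1.40 (adjusted p = 0.005).

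The third question was what growth in the brain changed with no sort on the tumour side. Batf was under the filter on low values (10 normalized counts in at least 3 libraries) in culture and entered the comparisons with culture only through the tumour libraries, so it is left out of the counts and medians against culture and its values are given with no test. Of the other 8 genes, 2 were higher in unsorted WT tumours than in cultured cells, Jun and Junb, where 30.3% of 15078 genes were higher, and 2 were lower, Fosl1 and Fosl2, where 28.0% were lower. The median log2 difference of the 8 was -0.07, and that of all genes 0.02. In unsorted Pfp/Rag2-/- tumours 3 of the 8 were higher, Fos, Fosb and Junb, where 39.1% of 15067 genes were higher, and 1 was lower, Fosl1, where 33.6% were lower. The counts of higher members are near the shares of all genes.

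Cultured cells held 1699, 1807 and 1860 normalized counts of Fos, which overlap the unsorted WT libraries. The Fos log2 difference of unsorted WT tumours from culture was -0.06 (95% interval -0.24 to 0.13), beside 4.66 for sorted GFP+ against unsorted cells. In Pfp/Rag2-/- tumours it was 0.40 (SE 0.06, adjusted p = 0.000262), beside 3.71. Fosb in culture was 71.8, 69.8 and 86.8. Its unsorted difference was 0.26 in WT (95% interval -0.11 to 0.63) and 1.20 in Pfp/Rag2-/- tumours (SE 0.13, adjusted p = 3.31e-05). For both genes the unsorted Pfp/Rag2-/- libraries lay above every unsorted WT and cultured library, and far below every sorted tumour library.

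Atf3 was 424.1, 575.0 and 571.4 in culture, and unsorted tumours differed from it by -0.18 in WT (95% interval -0.59 to 0.22) and -0.14 in Pfp/Rag2-/- hosts (95% interval -0.40 to 0.12). Junb was the member of the 8 called higher in unsorted tumours of both hosts. It rose from 1100, 1132 and 1144 in culture by 0.94 in WT (SE 0.08, adjusted p = 3.63e-05) and by 1.09 in Pfp/Rag2-/- tumours (SE 0.09, adjusted p = 4.57e-06), and the unsorted and cultured libraries did not overlap. Jun differed by 0.34 in WT (adjusted p = 0.0161), a call lost without culture library 2 (0.0573), culture library 3 (0.0637) or unsorted WT library 3 (0.0586), and by 0.01 in Pfp/Rag2-/- tumours. Unsorted tumours also hold host cells, and in sorted GFP- host cells Junb was 54.6-fold higher than in unsorted WT cells. That level was measured after the sort and not in host cells of unsorted tumours. The part of host cell RNA in the Junb difference was not tested.

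Fosl1 went the other way. Its values were 326.8, 296.0 and 294.8 in culture, 275.9, 233.9 and 229.9 in unsorted WT tumours and 222.1, 201.1 and 192.0 in unsorted Pfp/Rag2-/- tumours, and culture lay above all unsorted libraries. The difference was -0.58 in Pfp/Rag2-/- tumours (SE 0.09, adjusted p = 0.000407) and -0.31 in WT tumours (SE 0.11, adjusted p = 0.0453). The WT call was lost in 11 of its alternatives, with adjusted p up to 0.29. Fosl2 fell by 0.475 in unsorted WT tumours (adjusted p = 0.00356), with values of 1580, 1727 and 1591 in culture. In the fit of all 18 libraries this Fosl2 call was lost (limma, adjusted p = 0.135), as was the Pfp/Rag2-/- Fosl1 call (adjusted p = 0.0552).

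Sorted tumour cells against culture compares 2 sets of GFP+ cells that both carry the sorted label. Batf again left out, 7 of 8 members were higher in WT, where 30.3% of 14261 genes were. In Pfp/Rag2-/- 6 of 8 were higher, where 35.1% of 14487 genes were, and Fosl1 was lower (log2 -0.69, SE 0.11, adjusted p = 0.000465), where 37.1% were. Fos was 24.3-fold and Fosb 228-fold above culture in WT GFP+ cells, and 17.2-fold and 118-fold in Pfp/Rag2-/- GFP+ cells. For Fos, Fosb, Atf3 and Jund the difference of sorted tumour cells from culture stood beside that from unsorted tumour cells of the same host. In WT the pairs were 4.61 and 4.66 for Fos, 7.83 and 7.57 for Fosb, 3.61 and 3.79 for Atf3, and 1.10 and 1.18 for Jund. The same pairs in Pfp/Rag2-/- tumours were 4.11 and 3.71 for Fos, 6.89 and 5.68 for Fosb, 2.67 and 2.81 for Atf3, and 1.22 and 1.17 for Jund. Junb was at 3.38 and 2.44 in WT and at 3.36 and 2.27 in Pfp/Rag2-/- tumours. The values of a pair share the sorted libraries, and the difference between them is that of unsorted tumours from culture.

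**Figure D3:**
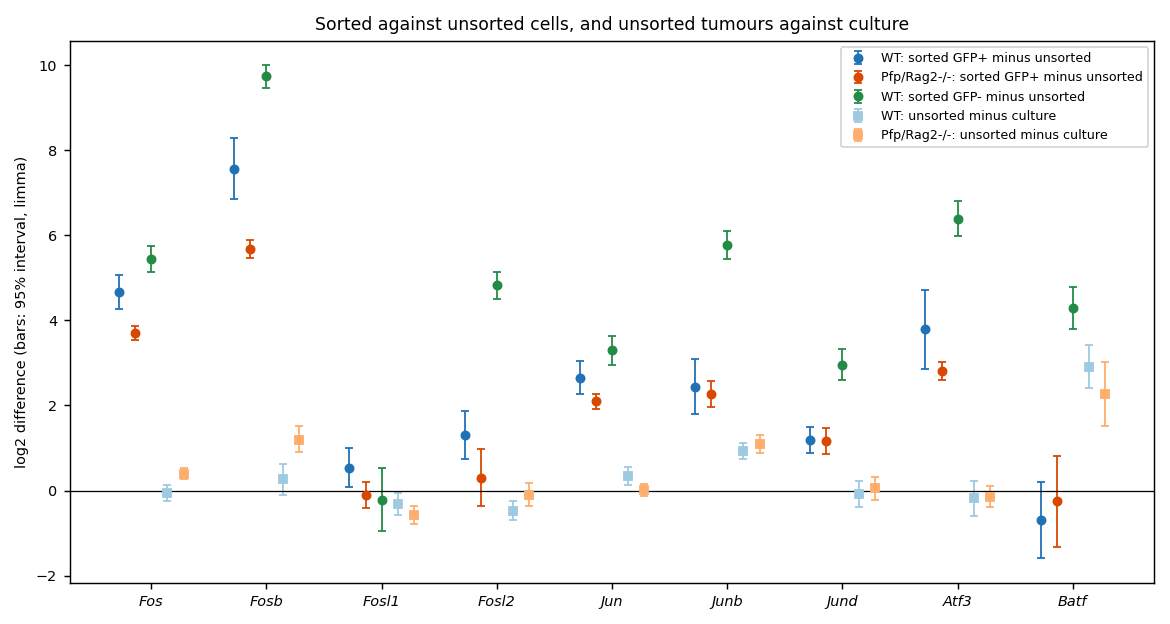
Log2 differences with 95% intervals (limma) for each AP-1 gene: circles for sorted against unsorted cells, squares for unsorted tumours against culture. The circles of Fos, Fosb and Atf3 lie between 2.81 and 9.74 while their squares lie between -0.18 and 1.20. The squares of Batf rest on 5 or 6 reads a library in culture and are not read as a test.

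The host comparison asked whether tumour cells grown in immunocompetent and immunodeficient mice differed. Among sorted GFP+ cells 2 members were higher in WT, where 15.3% of 14807 genes were. They were Jun, by 0.88 (SE 0.14, adjusted p = 0.00509), and Fosl1, by 0.91 (SE 0.19, adjusted p = 0.0136). Jun values of the hosts did not overlap, at 21902 to 32210 in WT and 14428 to 15996 in Pfp/Rag2-/- cells, and Fosl1 was 375.4, 444.7 and 273.5 in WT and 215.5, 165.3 and 191.6 in Pfp/Rag2-/- cells. In this main limma fit Fos (adjusted p = 0.0598), Fosb (adjusted p = 0.0565), Fosl2 (adjusted p = 0.198) and Atf3 (adjusted p = 0.112) were not called. Same-numbered GFP+ libraries of the hosts deviated together, a pairing found in these data and not given by the labels. With the replicate number as a block 6 members were called, adding Fos (0.50, adjusted p = 0.032), Fosb (0.95, adjusted p = 0.0125), Fosl2 (0.64, adjusted p = 0.0348) and Atf3 (0.93, adjusted p = 0.0341). The pairing was read from these same data, so the added calls are no separate support. In each host the GFP+ library numbered 1 held the most NK cell marker RNA, and what made the libraries deviate together was not tested. Without WT GFP+ library 3 there were 5 calls, and without Pfp/Rag2-/- GFP+ library 2 there was 1, Fosl1 being lost (adjusted p = 0.0551). With single libraries left out, the calls over all 14807 genes ran from 2522 to 5532, against 4497 in the main fit. Without both GFP+ libraries numbered 1 there were again 2.

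Among unsorted cells the direction for Fos and Fosb was the opposite of that in sorted cells, where neither was called in the main fit. Both were lower in WT, by -0.46 (SE 0.09, adjusted p = 0.0088) for Fos and -0.94 (SE 0.15, adjusted p = 0.0042) for Fosb, where 14.8% of 15448 genes were lower. In the fit of the sort step in WT minus that in Pfp/Rag2-/- tumours, Fosb alone of the members was called, at 1.89 (SE 0.36, adjusted p = 0.0394), where 0.712% of 16161 genes were called higher. Fos gave 0.955 (SE 0.20, adjusted p = 0.0527), Atf3 0.97 (95% interval -0.03 to 1.98) and Fosl2 1.01 (95% interval 0.10 to 1.92, adjusted p = 0.207). The Fosb call held in 8 of its 20 alternatives. Without WT GFP+ library 3 there were 5 calls, and leaving out any one of the Pfp/Rag2-/- libraries gave 0. In the fits without 1 library the calls over all 16161 genes also ran from 0 to 1105, against 151 in the main fit.

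The make-up of each family was compared per kilobase of exon, since only that scale sets genes of different length side by side. Fos was the leading FOS gene in every group, at 69.6% ± 1.35 of the family's normalized counts per kilobase in culture (SD, n = 3), 73.9% ± 2.76 in unsorted WT, 84.8% ± 2.59 in WT GFP+ and 66.4% ± 1.93 in GFP- cells. Fosb made up 1.12% ± 0.12 in culture, 1.48% ± 0.17 in unsorted WT, 13.0% ± 2.51 in WT GFP+, 9.81% ± 0.84 in Pfp/Rag2-/- GFP+ and 26.2% ± 1.11 in GFP- cells. Fosl1 and Fosl2 held 13.8% ± 1.21 and 15.5% ± 0.71 in culture, but 0.81% ± 0.10 and 1.38% ± 0.13 in WT GFP+ cells. The sorted GFP- cells differed from GFP+ cells in Fosl2, at 7.24% ± 1.05.

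Among the JUN genes the leading member changed. Jun was first in culture, at 48.99% ± 0.95, and in WT GFP+ cells, at 57.0% ± 3.37, while Junb made up 73.7% ± 0.81 in GFP- cells, where Jun held 19.5% ± 0.50. In Pfp/Rag2-/- GFP+ cells Jun (41.9% ± 2.81) and Junb (44.7% ± 3.02) overlapped. The share of Jund was 29% ± 2.26 of the family in culture, 9.22% ± 2.07 in WT GFP+ and 6.84% ± 0.32 in GFP- cells, although its own level was higher there.

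**Figure D4:**
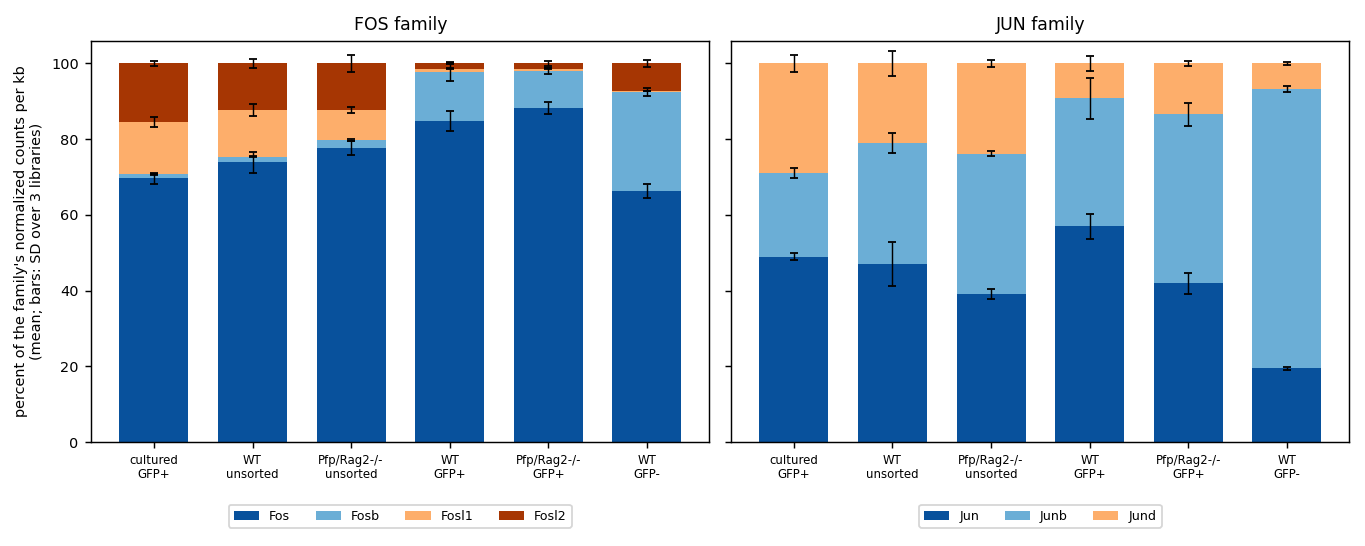
Percent of the normalized counts per kilobase of exon held by each FOS gene (left) and JUN gene (right), mean of 3 libraries with SD. Fosb grows from 1.12% in culture to 26.2% in GFP- cells and Junb from 22.0% to 73.7%.

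Batf, a factor of T cells, B cells and myeloid cells that lacks an activation domain, was low in the cultured line, with 5.67, 5.66 and 4.77 normalized counts, which are 5 or 6 reads. GFP- cells had 1033, 1049 and 750.7. Unsorted WT libraries had 42.4, 50.4 and 47.9, WT GFP+ libraries 49.8, 26.6 and 17.5, and Pfp/Rag2-/- GFP+ libraries 44.8, 19.3 and 17.5. In both hosts GFP+ library 1 was the highest of its group. The same library had the highest NK cell marker level of its group, at 5.03% (WT) and 15.2% (Pfp/Rag2-/-) of the level in GFP- cells, against 0.267% to 0.482% in the GFP+ libraries numbered 2 and 3.

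Of the GFP- mean, Batf stood at 4.49% to 5.34% in unsorted WT libraries, 2.11% to 4.87% in unsorted Pfp/Rag2-/- libraries and 1.85% to 5.27% in the GFP+ libraries, and the NK cell, T cell and macrophage marker medians of those libraries are plotted beside it. The part of host cell RNA in the Batf values was not tested. Fos stood at 39.5% to 68.8% of its GFP- mean in the GFP+ libraries. These percentages, like those of Batf and of the markers, rest on normalized counts. On RPM Fos was 2270 to 3069 in the GFP- libraries, which overlaps the 1680 to 2733 of the GFP+ libraries. The marker medians of the GFP+ libraries reached 2.43% for macrophages and microglia, 2.58% for T cells, 6.27% for neutrophils, 15.2% for NK cells, 46.8% for endothelium and 75.2% for pericytes and fibroblasts, all but the T cell value in Pfp/Rag2-/- GFP+ library 1. In the unsorted libraries of both hosts the endothelium median was 41.2% to 86.8% and that of pericytes and fibroblasts 26.1% to 97.4%. The part of these cells in the Fos values was not tested. Of 10 genes listed as partners and targets of BATF in lymphoid and myeloid cells, Il2 and Il17a passed the filter only through the GFP- cells. The other 8 were higher in GFP- than in unsorted WT cells, where 39.9% of all genes were, led by Ctla4 (6.89) and Il10 (6.46).

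**Figure D5:**
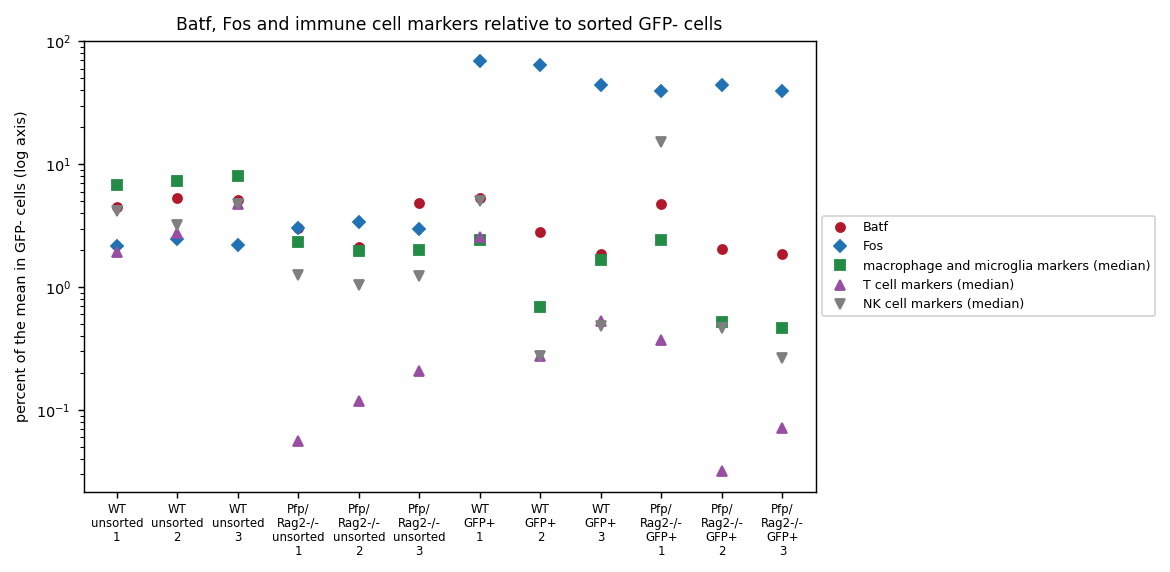
Level of Batf and Fos, and median level of immune cell markers, in each tumour library as a percent of the mean in sorted GFP- cells (log axis, normalized counts). Batf lies at 1.85% to 5.34%, and Fos lies at 39.5% or more in every GFP+ library. On RPM the Fos values of GFP+ and GFP- libraries overlap.

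The rest of the pathway was read from lists of related genes, to be set against the shares of all genes called in sorted GFP+ against unsorted cells, 6.46% higher and 10.3% lower in WT and 11.1% higher and 19.1% lower in Pfp/Rag2-/- tumours. Of 22 other immediate early genes tested, 19 were higher in WT GFP+ than in unsorted WT cells and none lower (median 1.67), led by Klf4 (4.02) and Egr1 (3.72), with Myc (0.89) and Maff (1.04) at the low end. Among Pfp/Rag2-/- tumours 16 were higher, led by Zfp36 (3.42) and Egr2 (2.73), and Arc was lower (-1.24). In both sorted WT fractions 18 of the 22 were above unsorted cells, where 3.53% of all genes were. In unsorted WT tumours against culture, with Arc left out because it passed the filter only through the tumours, 9 of 21 were higher, where 30.3% of all genes were, and 7 lower, where 28.0% were, from Egr3 (-2.24) and Klf4 (-1.83) to Sgk1 (1.60).

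Of 15 kinases and factors that act upstream of AP-1, 1 was higher in WT GFP+ cells, the serum response factor gene Srf (0.58, SE 0.13), and 1 was lower, Elk3 (-0.41), against 6.46% and 10.3% of all genes. Among 8 MAP kinase phosphatases, which switch the pathway off, 4 were higher in WT, where 6.46% of all genes were, with Dusp1 at 3.15 (adjusted p = 0.00108), and 2 in Pfp/Rag2-/- tumours, where 11.1% were, with Dusp1 at 2.37. Of 10 other bZIP partners 2 were higher in WT, Mafk (1.41) and Maff (1.04), and Maf was lower (-1.25), against the same 6.46% and 10.3%.

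Genes known as AP-1 targets did not move as a block. Of 18 tested in WT, the matrix protease genes Mmp3 and Mmp10 averaged under 10 normalized counts in the sorted cells and are left out. Of the other 16, 2 were higher, Hbegf (1.50) and Vegfa (1.20), where 6.46% of all genes were, and 1 was lower, Ccl2 (-2.22), where 10.3% were. Of 15 tested in Pfp/Rag2-/- tumours, 4 were higher, led by Mmp13 (2.42), where 11.1% of all genes were, and 2 were lower, where 19.1% were. The heat shock list, a stress response separate from AP-1, had 5 of 12 genes higher in WT, where 6.46% of all genes were. Hspa1b (3.30) and Hspa1a (2.81) led it. In unsorted WT cells that pair averaged 18.62 and 12.88, near the filter of 10. In WT GFP+ cells it averaged 251.8 (SD 241.3) and 121 (SD 111), and in GFP- cells 17223 and 8227. The part of GFP- cell RNA in these values was not tested. In Pfp/Rag2-/- tumours that pair averaged under 10 in the unsorted cells and is left out, and of the other 10 genes 5 were higher, where 11.1% of all genes were, led by Dnajb1 (1.13).

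Over the 18 libraries, the gene most like Fos by Pearson's r of log2 values was Fosb (r = 0.996), then Jun (0.979) and Egr1 (0.974), out of 11210 genes compared. Junb was most like Zfp36 (0.995), Ciz1 and Klf2, Atf3 most like E4f1 (0.989), Klf6 and Nfkbiz, and Jund most like Srsf11 (0.985), Rhob and Paxbp1. Fosl2 was most like Nfil3 (0.989), Irf2bp2 and Tle3, and Batf most like Arhgap25 (0.992), Nlrp1c-ps and Apobr. Fosl1 stood alone: its r with the other 8 members ran from -0.26 to 0.04, and its nearest gene was Tnfrsf12a (0.906), then Nup54 and Klf16. These values are descriptions over libraries that share groups, and by Spearman's rho 3 of the 27 nearest genes were the same.

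The members lie on GRCm38 on chromosome 12 (Fos, 85473890 to 85477273, plus strand, and Batf, 85686669 to 85709087), 7 (Fosb, 19302696 to 19310051, minus), 19 (Fosl1, 5447547 to 5455946), 5 (Fosl2, 32135801 to 32157842), 4 (Jun, 95049034 to 95052222, minus), 8 (Junb, 84974484 to 84978718, minus, and Jund, 70698949 to 70700616) and 1 (Atf3, 191170296 to 191218039, minus), and all are protein coding. Jun overlaps the antisense gene Junos, Junb overlaps Prdx2 and Fosl1 overlaps Ccdc85b, each on the other strand. The library kit keeps strand, but how the reads were counted was not given in the sources used here, so reads of each pair may be shared. Junos stood at 15.99 to 44.98 normalized counts outside the GFP- cells and at 194.2 to 318.9 in them. Prdx2 stood at 1939 to 2367 in GFP- cells against 4895 to 5792 in unsorted WT cells, where Junb was low. Ccdc85b ran from 122.6 to 325.5 over all groups, about as high as Fosl1 (128.8 to 444.7). The part of shared reads in the Fosl1 values was not tested.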

How the data were processed

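RNA-seq of 18 mouse libraries in 6 groups of 3 was used. The authors deposited 1 normalized count (a signal) for every gene in each library. The tools STAR 2.5.2b, DESeq2 and build GRCm38 are listed in the submitters' processing notes, and the read counter and annotation release were not given in the sources used here. The deposited values were whole multiples of 1 step per library in 100% of cases (tolerance 0.05 reads), so whole reads were recovered and gave the depth of 19172814 to 21141662 reads, with size factors of 0.649 to 0.761 in GFP- libraries and 1.04 to 1.15 in the others. Symbols came from a table of gene identifiers (48349 genes matched). Each comparison was fitted to its own groups with limma 3.58.1 (trend) in R 4.3.3 on log2 of the value plus 1, for genes of at least 10 in at least 3 libraries, two-sided, with Benjamini-Hochberg adjustment over all genes tested and a threshold of 0.05; all 9 members passed the filter in every comparison, Batf against culture only through the tumour libraries. The scripts were tested on simulated data. Alternatives were a value of 10 added, no filter, RPM, 1 fit of all 18 libraries, quasi-likelihood in edgeR 4.0.16, and DESeq2 1.42.0 (both on the recovered reads), the replicate number as a block, and each library left out; 1 more, leaving out both GFP+ libraries numbered 1, and the TGACG motif were chosen after seeing the data. The deviations of same-numbered libraries correlated above 0.1 in every pair only for sorted GFP+ cells of the hosts (r = 0.616, 0.483 and 0.102), so there the numbers were taken to pair the libraries from the data, since the labels give no shared batch. Promoter windows are from RefSeq, GRCm38.p6. The members and gene lists were chosen with earlier results of these data known. All members are named, with the 3 genes most like each and up to 2 genes of highest and 2 of lowest difference per list.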

Additional observations from a re-analysis of the deposited data

Results flagged for a closer look

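Fosb was singled out because the size of its difference between sorted GFP+ and unsorted cells differed between the hosts by a test of that difference: the WT difference exceeded the Pfp/Rag2-/- one by 1.89 on the log2 scale (limma, SE 0.36, adjusted p = 0.0394). Sorted WT cells held more Fosb than sorted Pfp/Rag2-/- cells, a difference that was not called (limma, adjusted p = 0.0565). Unsorted WT cells held less than unsorted Pfp/Rag2-/- cells, which was called (limma, adjusted p = 0.0042). Over the alternatives the value ran from 1.65 to 2.28 and the adjusted p from 1.01e-05 to 0.121, with a call in 8 of 20 alternatives.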

How the results depend on the processing

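Depth was even, so the 3 libraries in each group and the scale set the limits. With all 18 libraries in 1 fit, 3 members, Batf counted, were called in unsorted WT tumours against culture. With single libraries left out that count was 3 to 5, where 7093 to 10142 of 15078 genes were called. Batf passed the filter in this comparison only through the tumours, so its call is no result. Between sorted hosts the fit of all 18 libraries called 5 members, edgeR and DESeq2 each 4, the replicate block 6, and leaving out single libraries 1 to 5. In the fit of the sort step between hosts, no filter, edgeR and leaving out both GFP+ libraries numbered 1 gave 0, RPM, DESeq2 and the replicate block 2 each, and leaving out single libraries 0 to 5. Only the sorted GFP+ libraries of the hosts had r above 0.1 in every same-numbered pair. GFP- against GFP+ cells of WT tumours gave 0.212, 0.0679 and 0.32, and whether these fractions are paired was not settled. Beyond the counts above, the block (limma) added Fosl1 in GFP- against GFP+ cells (adjusted p = 0.0196) and Jun between unsorted hosts (0.0444). It lost Fosl1 in unsorted WT tumours against culture (0.0569). Spearman's rho shared 3 of 27 nearest genes.

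Values that turned sign were those of genes not called, except Jun in GFP- against GFP+ cells on RPM (-0.0143). On RPM these were 0.0697 for Fos and 0.0481 for Jund in unsorted WT tumours against culture, 0.0556 for Fosl2 and 0.0132 for Atf3 in unsorted Pfp/Rag2-/- tumours against culture, -0.0653 for Junb between sorted hosts and -0.0502 for Jund in the sort step between hosts. With edgeR, Jund gave -0.0196 there. Atf3 between unsorted hosts gave 0.0151 with edgeR and 0.00923 with DESeq2, and Junb between sorted hosts gave -0.107 without both GFP+ libraries numbered 1. The cause was not tested.

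With single libraries left out, sign changes lay within these ranges: in Pfp/Rag2-/- sorted against unsorted cells Fosl2 -0.0415 to 0.496 and Batf -0.664 to 0.0559, in GFP- against unsorted cells Fosl1 -0.421 to 0.146, in Pfp/Rag2-/- GFP+ cells against culture Fosl2 -0.14 to 0.398, and in unsorted WT tumours against culture Jund -0.213 to 0.0103. In unsorted Pfp/Rag2-/- tumours against culture the ranges were -0.228 to 0.0523 for Fosl2, -0.0523 to 0.0846 for Jun and -0.0427 to 0.185 for Jund. Between hosts they were -0.202 to 0.374 for sorted Junb, -0.191 to 0.612 for sorted Batf and -0.203 to 0.0626 for unsorted Atf3, and for the sort step between hosts -0.0477 to 0.528 for Junb and -0.0884 to 0.143 for Jund.

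Counts over all genes moved as well. Sorted against unsorted WT cells gave 2559 calls with limma, 2471 with edgeR, 4430 in the fit of all 18 libraries and 356 to 3323 with single libraries left out. The Pfp/Rag2-/- counterpart gave 4625, 2686 in the fit of all 18 and 2928 to 4764. Sorted hosts gave 4497, 2971 in the fit of all 18, 2340 without both GFP+ libraries numbered 1 and 2522 to 5532, and unsorted hosts 4620 and 2280 to 6142. The sort step between hosts gave 151, with 61 without the filter, 34 in the fit of all 18, 70 with edgeR, 1194 with DESeq2 and 0 to 1105. Genes above unsorted cells in both sorted fractions numbered 529, with 314 on RPM, 1107 in the fit of all 18, 802 with DESeq2 and 81 to 648. The share of calls that were higher moved from 54.1% to 34.7% on RPM for GFP- against unsorted cells, from 55.9% to 37.2% for GFP- against GFP+ cells, from 50.5% to 33.9% between sorted hosts, from 76.2% to 53.8% (64.2% with DESeq2) for the sort step between hosts, and against culture from 48.6% to 62.4% for Pfp/Rag2-/- GFP+ cells, 52% to 63.7% for unsorted WT and 53.8% to 65.4% for unsorted Pfp/Rag2-/- tumours; Pfp/Rag2-/- sorted against unsorted cells moved from 36.7% to 50.6% with edgeR and 48.1% with DESeq2.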
